A study of Mus musculus with 15 samples.

Results

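The 8 genes Sox9, Epcam, Krt7, Krt19, Cd24a, Prom1, Spp1 and Cldn4, which are used in liver as markers of bile duct cells and of progenitor cells, were followed in every liver of the series. They were found by gene symbol among the probes that are not array controls, and were measured with 10 of the 29522 probes that carry a symbol, 8 of 22032 symbols and 19 of 59305 spots per array. Their RNA was measured on 15 single-colour arrays of 13 male mice of the outbred strain CD1. The study asked whether delivery of the Gas1 gene, which arrests cell growth, moves the livers of mice with hepatocellular carcinoma (HCC) towards those of healthy mice. The Control group (4 arrays, 3 mice) received saline and an empty plasmid. The DEN group (5 arrays, 4 mice) received diethylnitrosamine (DEN), a liver carcinogen, at day 15 in a dose of 25 µg per g body weight, and the same empty plasmid. The Gas1 group (6 arrays, 6 mice) received the same DEN and a plasmid in which the CAG promoter drives an HA-tagged Gas1. In all groups the plasmid (50 µg) was injected weekly from week 28 to week 34 by hydrodynamic gene delivery (HGD), a fast injection of a large volume that carries DNA into some of the liver cells, and the methods give week 35 for the removal of the livers, whereas the sample labels give an age of 10 weeks. All groups thus share the plasmid backbone and the HGD procedure, and how much of each RNA came from tumour is not given in the sources used here.

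Bile ducts are lined by cholangiocytes, an epithelium that differs from the hepatocytes by its keratins, its tight junctions and its transcription factors. When a liver is injured, small ducts and cells with both biliary and hepatocyte traits can expand at the portal tracts, and the same genes are then used to follow them. In liver tumours some of these genes, Prom1 (CD133), Epcam and Cd24a among them, are also used as markers of cells with stem cell traits. The RNA here came from pieces of liver, so that fewer cells of a type and less RNA per cell cannot be told apart.

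The probes on which the results turn are printed below, because each of the genes Prom1 and Cldn4 has a pair of probes that are described separately, and because the Spp1 probe was the only one well above background on every array. Each is 60 bases long. Of the downstream probes 30 bases are shown, and capitals mark the letters AATAAA, a common polyadenylation signal, where they occur. Prom1 and Cldn4 lie on the minus strand, Spp1 lies on the plus strand, and positions are those the array files give for mouse genome mm9.
Prom1, upstream probe, chr5:44397410-44397469: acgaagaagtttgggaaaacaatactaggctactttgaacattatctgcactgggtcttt
Prom1, downstream probe, chr5:44384861-44384890: gagatttaaAATAAAgcatgaatgaacaga
Cldn4, upstream probe, chr5:135422135-135422194: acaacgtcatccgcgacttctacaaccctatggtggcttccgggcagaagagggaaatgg
Cldn4, downstream probe, chr5:135421377-135421406: accctactaatgaatttctgtagagtggat
Spp1, chr5:104868502-104868561: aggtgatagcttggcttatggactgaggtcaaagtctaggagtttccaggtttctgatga
Read in the 3 forward frames, the upstream probe of Prom1 had 1 frame without a stop codon and that of Cldn4 had 3, whereas both downstream probes had 0. The Prom1 probes lie 12489 bases apart on the genome and the Cldn4 probes 728 bases apart. Sox9 (chr11:112648809-112648868), Krt7 (chr15:101253718-101253777), Krt19 (chr11:100002392-100002451) and Cd24a (chr10:43303706-43303765) had 1 probe each, and that of Epcam spans 829 bases of chr17:88048972-88049800, more than its own length. No gene annotation of mm9 was used, so that exons and untranslated regions are not assigned. Sox9 was printed in 10 spots per array and the other members in 1 spot per probe.

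Most members gave a weak signal. Before normalization the median ratio of spot signal to local background over the arrays was 4.83 for Spp1 and lay between 1.60 and 2.68 for the other 9 probes. Feature Extraction, the software that reads the scans, called Spp1 well above background on 15 of 15 arrays, Krt19 on 11, Sox9 and Prom1 on 9, Cldn4 on 7, Cd24a on 5, and Epcam and Krt7 on 4. The arrays on which Epcam and Krt7 passed were the same 4, Control 3, Gas1 4, Gas1 5 and Gas1 6, and these were the arrays with the most spots well above background, between 26618 and 29765 against 24364 or fewer on the others. The part of array brightness in these calls was not tested.

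**Figure D1:**
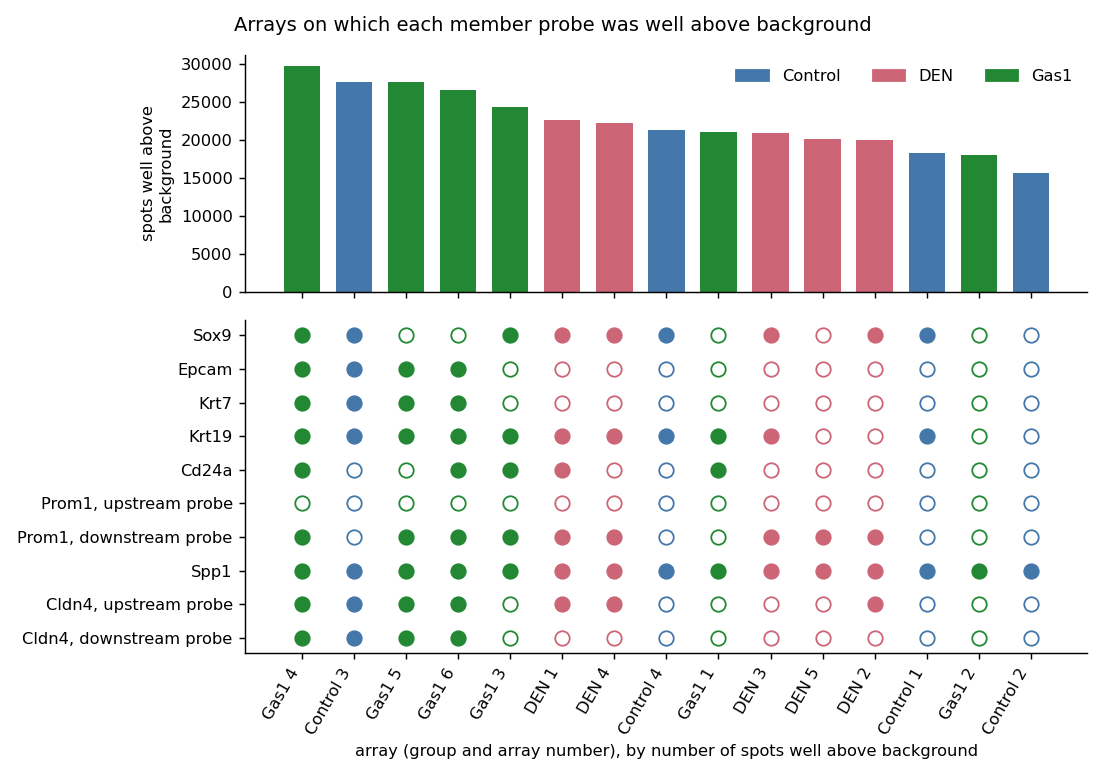
The upper panel gives the number of spots well above background on each array (bars, coloured by group) and the lower panel the member probes that were well above background on that array (filled circles) or not (open circles). Spp1 is filled on 15 of 15 arrays, the upstream Prom1 probe on 0, and Epcam and Krt7 on the 4 arrays with the tallest bars.

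The groups were first compared over all 8 members. With limma, at an adjusted p of 0.05 over all genes, 0 of 8 members passed in DEN against Control, where 2.38% of all genes passed, 0 of 8 in Gas1 against DEN (0.127% of all genes) and 0 of 8 in Gas1 against Control (0.427% of all genes). At an unadjusted p of 0.05 the counts were 4, 3 and 2 members, beside 20.3%, 10.9% and 13.2% of all genes. The median log2 difference of the members was -0.02 in DEN against Control, 0.09 in Gas1 against DEN and -0.03 in Gas1 against Control, and that of all genes was 0.0061, -0.0087 and -0.0030. In DEN against Control the normalized values of the mice of the 2 groups did not overlap for 3 of 8 members, beside 19.1% of all genes. Prom1 was higher in DEN, as were 10.5% of all genes, and Epcam and Krt7 were lower, as were 8.61%. In Gas1 against DEN 2 of 8 members did not overlap (3.13% of all genes), Sox9 and Prom1, both lower in Gas1 (2.03% of all genes). In Gas1 against Control 2 of 8 did not overlap (5.86% of all genes), with Spp1 higher (2.85%) and Sox9 lower (3.01%) in Gas1. Gas1 against DEN shares the DEN mice with DEN against Control, so that the 2 differences of a member are not independent. The differences farthest from zero were those of Prom1, Sox9 and Spp1.

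**Figure D2:**
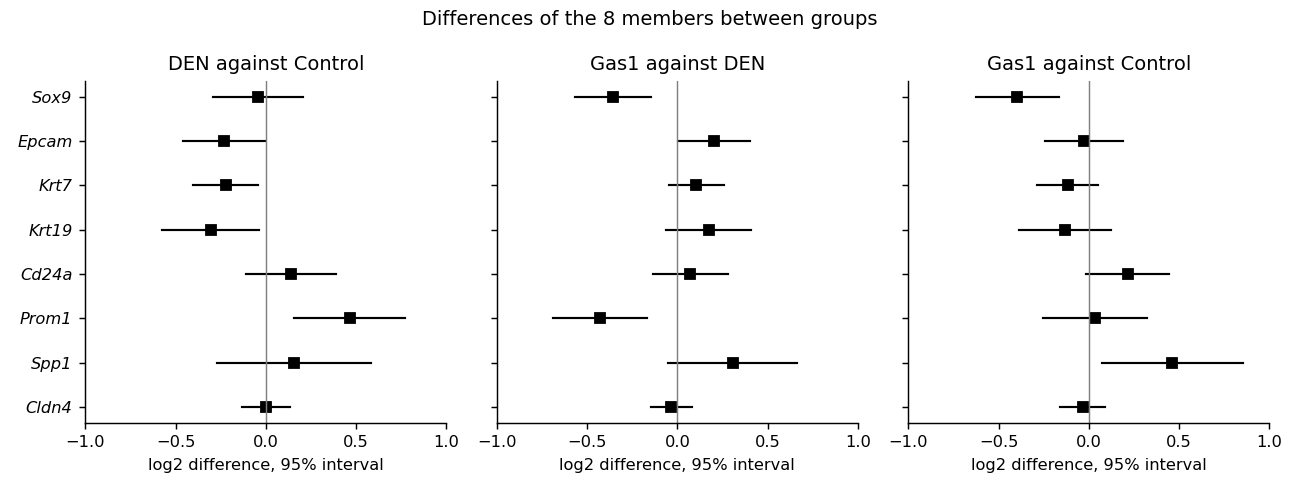
Log2 difference of each member in the 3 comparisons (squares) with its 95% interval (lines) from limma. The interval lies off zero for Prom1, Krt7, Krt19 and Epcam in DEN against Control, for Prom1, Sox9 and Epcam in Gas1 against DEN, and for Sox9 and Spp1 in Gas1 against Control, but none of them passed the test adjusted over all genes.

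Sox9 is the transcription factor that marks the biliary fate and the cells of the ductal plate. Its normalized log2 signal was 6.49, 6.28 and 6.84 in the Control mice. In the DEN mice it was 6.55, 6.50, 6.63 and 6.29. In the Gas1 mice it lay between 6.02 and 6.25, with a median of 6.13. On this normalized scale every Gas1 mouse was thus below every mouse of the other 2 groups, while Control and DEN overlapped. Before normalization the Sox9 signals of all groups overlapped. They were 44 to 66 on the Gas1 arrays, 55 to 82 on the DEN arrays and 42 to 109 on the Control arrays. The part of normalization in the gap was not tested. The mean log2 signal was 6.54 ± 0.28 (SD, n = 3) in Control, 6.49 ± 0.14 (SD, n = 4) in DEN and 6.14 ± 0.09 (SD, n = 6) in Gas1. By limma the difference of Gas1 from DEN was -0.35 (SE 0.10, adjusted p = 0.174, unadjusted p = 0.0031) and that of Gas1 from Control -0.40 (SE 0.11, adjusted p = 0.132, unadjusted p = 0.0027). DEN differed from Control by -0.04, with a 95% interval of -0.29 to 0.21.

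The SD of the 10 Sox9 spots within an array, which is technical spread only, was between 0.03 and 0.15 on the log2 scale. The probe was well above background on 3 of 4 Control, 4 of 5 DEN and 2 of 6 Gas1 arrays, so that most Gas1 values lie near the background. The difference between Gas1 and DEN was -0.22 within slide 1 and -0.39 within slide 2, and -0.34 with the slide as a term. With the 4 brightest arrays left out, which was tried after the data had been seen and leaves 3 Gas1 mice, it was -0.31 (adjusted p = 0.503).

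Prom1 encodes prominin-1 (CD133), a membrane protein of cell protrusions that is found on bile duct cells and on progenitor cells. The upstream probe was not well above background on any of the 15 arrays, so that it gives no fold, and none of its group means was above 6.08. The downstream probe was well above background on 0 of 4 Control arrays, on 5 of 5 DEN arrays and on 4 of 6 Gas1 arrays. Its log2 signal was 6.15, 6.40 and 6.11 in the Control mice. In the DEN mice it was 6.98, 8.16, 6.78 and 6.91. In the Gas1 mice it lay between 6.15 and 6.60, with a median of 6.34. Each DEN mouse was above all mice of the other two groups, whereas Control and Gas1 overlapped.

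The probes were also tested one by one over all 29522 probes with a symbol, of which 2.25% passed in DEN against Control, 0.139% in Gas1 against DEN and 0.44% in Gas1 against Control, while groups that did not overlap made up 18.7%, 3.12% and 5.88% of them. The downstream Prom1 probe had a log2 difference of 0.99 between DEN and Control (SE 0.26, limma, adjusted p = 0.0623) and of -0.84 between Gas1 and DEN (SE 0.22, adjusted p = 0.152). As the probe was not measured above background in Control, the DEN mean was at least 1.80-fold above Control. Here each Control array counted with the lowest signal that passed as well above background on it, or with the probe's own signal if higher. The DEN mean includes DEN mouse 2 at 8.16, and the probe did not pass. The 95% interval of the log2 difference was 0.43 to 1.54. Each fold given as at least, here and below, compares group means and is not the lower end of an interval. Gas1 differed from Control by 0.15 (95% interval -0.37 to 0.66). The value of the gene, the average of both probes after centring, carries the upstream probe with equal weight and its difference was 0.46 in DEN against Control (SE 0.14, adjusted p = 0.0981) and -0.43 in Gas1 against DEN (SE 0.12, adjusted p = 0.187).

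**Figure D3:**
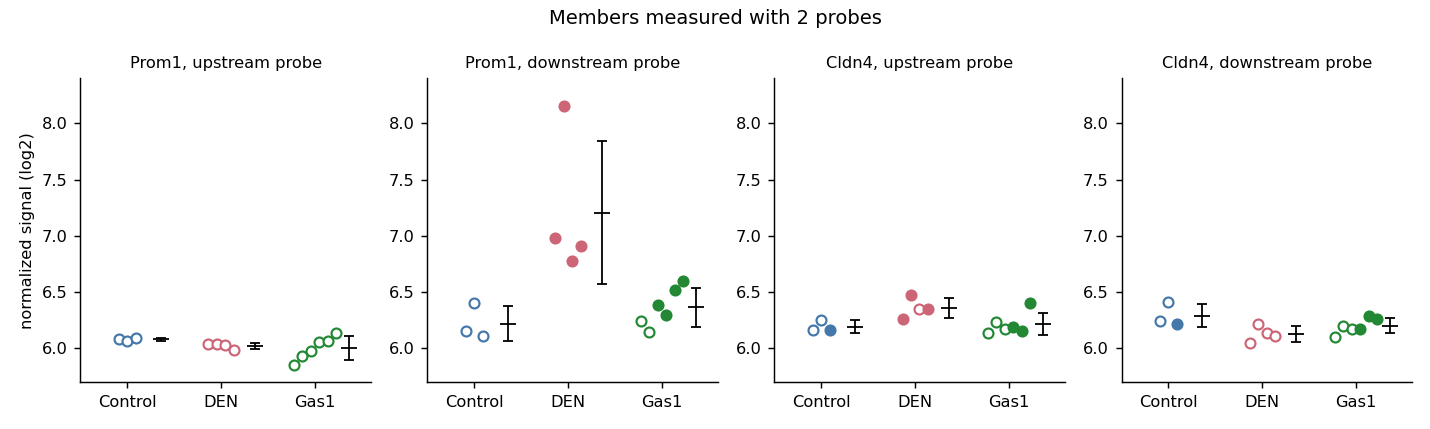
Normalized log2 signal of the single probes of Prom1 and Cldn4 in each mouse (circles, filled where the probe was well above background on an array of that mouse), with mean and SD per group (bars). On the downstream Prom1 probe the 4 DEN mice lie between 6.78 and 8.16, above all others, and the upstream probe is open in every mouse.

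The adjusted p of the downstream Prom1 probe lay on either side of the threshold, depending on the processing. In DEN against Control, 7 of 27 alternatives gave an adjusted p under 0.05, with a range of 0.016 to 0.252 and of 0.67 to 2.59 in the log2 difference. The lowest, 0.016, came with the 15 arrays as separate samples, which counts repeat arrays of the same RNA as mice. The run with the replicate number as a block (limma, adjusted p = 0.0291) does so too. The highest difference came with the signal processed by Feature Extraction, and a normexp offset of 16 in place of 50 gave 1.46 (adjusted p = 0.0321), since the offset added to each signal compresses differences of dim spots. DEN mouse 2 had the highest value, and without it the difference of the downstream probe was 0.67 (adjusted p = 0.0322). Within slide 1 it was 1.29 and within slide 2 0.74. The same mouse also had the highest summed linear signal of the 7 measured neutrophil markers, 1724 against 699 to 1010 in the other DEN mice, and of the exocrine pancreas genes, 1440 against 934 to 1040. Amy2a5, a pancreatic amylase, was at 9.51 on the log2 scale in that mouse and between 7.83 and 8.24 in the other 12, and 4 of the 11 exocrine pancreas genes, 10 of which enter the sum, were well above background on no array. The part of these cells in the Prom1 signal was not tested.

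Epcam and Cd24a are surface proteins, the first a cell adhesion molecule of bile duct epithelium and the second a small sialoglycoprotein of epithelial progenitors. Epcam was at 6.31, 6.21 and 6.33 in the Control mice. The value of 6.33 is that of Control array 3 alone, because the outlier spot of Control array 4 was left out. In the DEN mice Epcam was at 6.06, 5.82, 6.19 and 6.14, and it was well above background on none of their 5 arrays. In 5 Gas1 mice it lay between 6.05 and 6.41, with a median of 6.29, as the spot of Gas1 mouse 5 was an outlier and was left out. Before normalization the signals overlapped, at 38.9 to 69.7 on the Control arrays and 33.7 to 48.1 on the DEN arrays. After normalization all DEN mice were below all Control mice, by a mean log2 difference of -0.23 (SE 0.10, limma, adjusted p = 0.236). Only 1 of 4 Control arrays measured the probe above background, so that this compares values near the background. Gas1 differed from DEN by 0.20 (SE 0.09, adjusted p = 0.451) and from Control by -0.03 (95% interval -0.24 to 0.19).

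Cd24a was at 6.41, 6.13 and 6.07 in the Control mice. It was at 6.39, 6.39, 6.34 and 6.26 in the DEN mice. In the Gas1 mice it lay between 6.15 and 6.67, with a median of 6.40. The groups overlapped in all comparisons. The largest difference was that of Gas1 from Control, 0.21 (SE 0.11, limma, adjusted p = 0.415), and the probe was well above background on 0 of 4 Control, 1 of 5 DEN and 4 of 6 Gas1 arrays.

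Krt7 and Krt19 are the keratins that distinguish bile duct cells from hepatocytes. Krt7 was at 6.44, 6.50 and 6.27 in the Control mice. It was at 6.19, 6.20, 6.25 and 6.09 in the DEN mice. In the Gas1 mice it lay between 6.09 and 6.43, with a median of 6.33. The normalized values of the DEN mice did not overlap with those of the Control mice, the gap between the groups being small. The difference was -0.22 (SE 0.08, limma, adjusted p = 0.164). Before normalization the signals overlapped, at 45.05 to 66.12 on the Control arrays and 44.55 to 54.84 on the DEN arrays. Control mouse 2, whose array had the fewest spots well above background (15707), had the highest normalized value. The part of normalization in the gap was not tested. Krt7 was well above background on 1 of 4 Control and 0 of 5 DEN arrays.

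Krt19 was at 7.06, 6.51 and 6.66 in the Control mice. It was at 6.44, 6.37, 6.55 and 6.39 in the DEN mice. In 5 Gas1 mice it lay between 6.47 and 6.86, with a median of 6.58, the outlier spot of Gas1 mouse 5 being left out here too. One Control mouse stood above all others, and the groups overlapped. The difference of DEN from Control was -0.30 (SE 0.12, limma, adjusted p = 0.193), and without Control mouse 1 it was -0.14. Krt19 was, ahead of Spp1, the least repeatable member, with a difference of 0.27 between the 2 Control arrays of one RNA and of 0.20 between the 2 DEN arrays of one RNA, where the median over the members was 0.05 on both pairs. Krt8 and Krt18, the keratins that hepatocytes share with bile duct cells, were well above background on every array, and neither passed the test in any comparison. Krt8 differed by -0.28 between DEN and Control (adjusted p = 0.432) and Krt18 by 0.31 (adjusted p = 0.347).

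**Figure D4:**
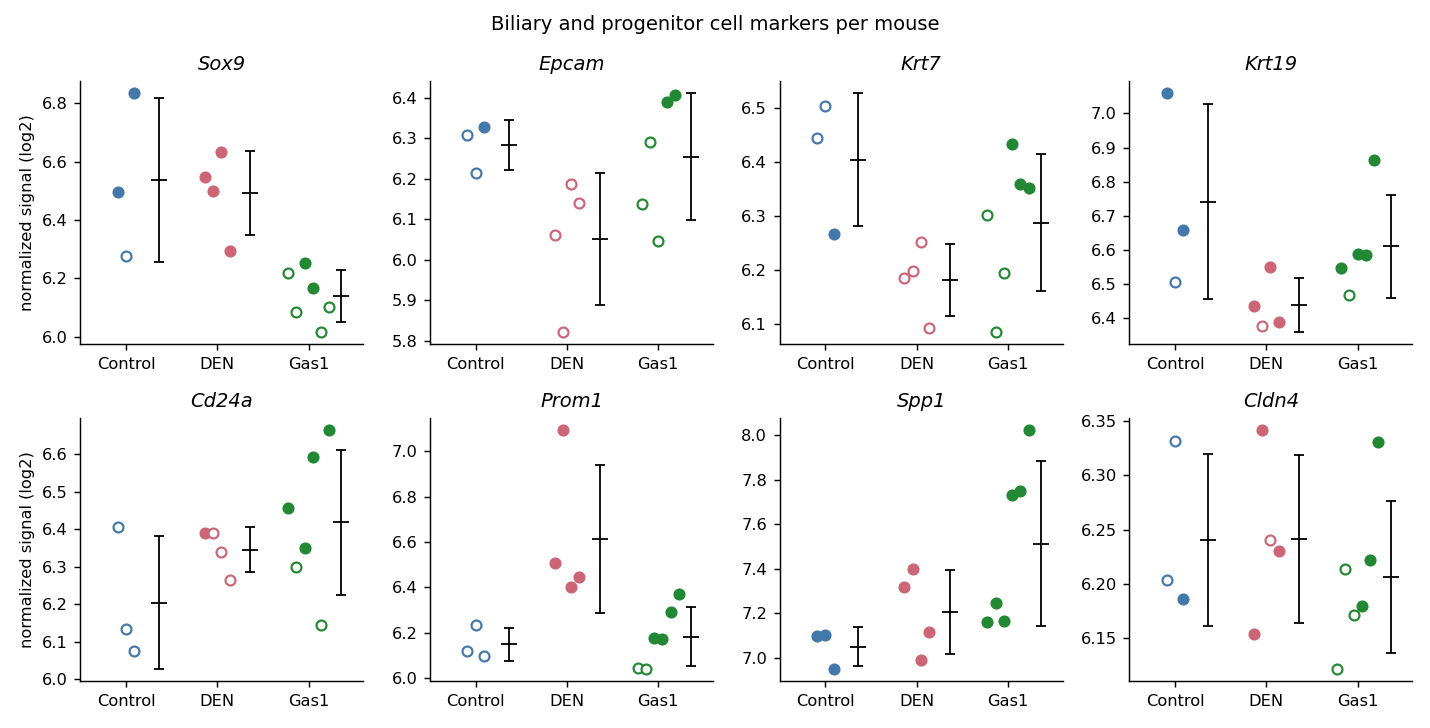
Normalized log2 signal of each member in each mouse (circles, filled where a probe was well above background on an array of that mouse), with mean and SD per group (bars). All 6 Gas1 mice lie below the others for Sox9, the 4 DEN mice lie above the others for Prom1, and 3 Gas1 mice lie between 7.73 and 8.02 for Spp1.

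Spp1 encodes osteopontin, a secreted phosphoprotein of bile duct cells that macrophages also make. It was the member with the strongest signal over background and the only one well above background on all arrays. Its log2 signal was 7.10, 7.10 and 6.95 in the Control mice. It was 7.32, 7.40, 6.99 and 7.12 in the DEN mice. The Gas1 mice had 7.16, 7.25, 7.16, 7.73, 7.75 and 8.02. All Gas1 mice were above all Control mice, 3 of them by little, and the Gas1 and DEN mice overlapped. The mean was 7.05 ± 0.09 (SD, n = 3) in Control, 7.21 ± 0.19 (SD, n = 4) in DEN and 7.51 ± 0.37 (SD, n = 6) in Gas1. By limma the difference of Gas1 from Control was 0.46 (SE 0.18, adjusted p = 0.294, unadjusted p = 0.0244), that of Gas1 from DEN 0.31 (SE 0.17, adjusted p = 0.535) and that of DEN from Control 0.16 (95% interval -0.27 to 0.58).

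The Gas1 mice with the highest Spp1, mice 4, 5 and 6, were also those with the brightest arrays. With the 4 brightest arrays left out, which was tried after the data had been seen, the Spp1 difference of Gas1 from Control was 0.11 (adjusted p = 0.648) and that of Gas1 from DEN -0.02 (adjusted p = 0.994). These 3 mice also had the highest summed linear signal of macrophage markers of their group, between 3392 and 3928, against 2686 to 3036 in the other Gas1 mice, 2243 to 3277 in the Control mice and 2709 to 3546 in the DEN mice. In 5 of the 16 gene lists the sums of these 3 mice lay above those of the other Gas1 mice. Beside the macrophage markers these were the 28 other bile duct genes (11259 to 11853 against 10212 to 10531), the gallbladder and gut genes (5521 to 7673 against 4245 to 4801), the stellate cell and fibroblast markers (1846 to 2246 against 1231 to 1725) and the exocrine pancreas genes (900 to 959 against 881 to 882). The bile duct sum holds Tff3, whose log2 signal was 10.82, 10.12 and 11.32 in mice 4, 5 and 6 and 9.41, 8.85 and 8.58 in mice 1, 2 and 3. Without Tff3 the bile duct sums of the Gas1 mice lay between 9305 and 10148, and mice 4, 5 and 6 no longer lay above the others. The part of the listed cell types and of array brightness in the Spp1 signal was not tested. Among 7929 other genes well above background on every array, the genes whose pattern over the 13 mice was most like that of Spp1 were Plcl2 (Pearson r = 0.87), Gm13777 (r = 0.84) and Slc6a8 (r = 0.84), which is a description over mice of 3 groups.

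Cldn4 encodes claudin-4, a tight junction protein of bile duct and other epithelia. Its value as a gene was at 6.20, 6.33 and 6.19 in the Control mice. It was at 6.15, 6.34, 6.24 and 6.23 in the DEN mice. In the Gas1 mice it lay between 6.12 and 6.33, with a median of 6.20. The groups overlapped, and DEN differed from Control by 0.0012 (SE 0.06, limma, adjusted p = 0.995), with a 95% interval of -0.13 to 0.14. The probes differed in sign. The upstream probe had a log2 difference of 0.17 between DEN and Control (SE 0.07, adjusted p = 0.221), and the DEN mice lay above all Control mice. The downstream probe differed by -0.16 (SE 0.07, adjusted p = 0.189), and was well above background on none of the DEN arrays. Neither passed the test.

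Whether the members rose and fell together among mice of the same group was asked with the group means subtracted. The test was planned for members well above background on every array, of which there was 1, so that all 28 pairs of the 8 members were taken instead. The correlation was above zero in 21 of 28 pairs, with a median r of 0.22. In a permutation test of mice within groups (100000 permutations, two-sided), 0 of 28 pairs passed after adjustment over the pairs, and 4 had an unadjusted p under 0.05. The lowest adjusted p was that of Prom1 and Spp1 (r = 0.62, rho = 0.66, n = 13 mice, permutation p = 0.0022, adjusted p = 0.0619), whose r was 0.83 without the 2 mice farthest from the median of Prom1. The next were Prom1 and Cldn4 (r = 0.71, rho = 0.53, permutation adjusted p = 0.0965) and Krt19 and Cd24a (r = 0.77, rho = 0.70, permutation adjusted p = 0.212), and the latter r was 0.19 without the 2 mice farthest from the median of Krt19. These adjusted p are those of r. With rho, 0 of 28 pairs passed, and the permutation adjusted p of Prom1 and Spp1 was 0.381.

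The members were set beside a list of 28 other genes of bile duct epithelium, of which 14 were well above background on every array and 4 on none. Which cells of the liver or of its tumours made the RNA of these genes was not tested. In DEN against Control 3 rose, 1 fell and 24 did not pass, with a median log2 difference of 0.03, and 2.38% of all genes passed. In Gas1 against DEN and in Gas1 against Control 0 of 28 passed with limma, beside 0.127% and 0.427% of all genes. An unadjusted p under 0.05 was found for 8 and 10 of them, beside 10.9% and 13.2% of all genes. In DEN against Control 7 higher and 2 lower genes of the 28 had such a p, beside 20.3% of all genes. Tff3, the trefoil factor that bile ducts secrete with their mucins, was at 6.81 ± 0.17 (SD, n = 3) in Control, 11.93 ± 1.00 (SD, n = 4) in DEN and 9.85 ± 1.09 (SD, n = 6) in Gas1, and rose by 5.12 on the log2 scale from Control to DEN (SE 0.64, limma, adjusted p = 0.00525). Its difference of Gas1 from DEN was -2.08 (adjusted p = 0.153). Cdh1, the adhesion protein E-cadherin, rose by 0.96 in DEN against Control (SE 0.17, limma, adjusted p = 0.018), but the call was lost without Control mouse 2 (adjusted p = 0.0632) and without DEN mouse 3 (adjusted p = 0.0502).

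Tspan8, a tetraspanin of epithelial membranes, rose in DEN, where it was at least 2.13-fold higher than in Control (limma, adjusted p = 0.00773), as it was well above background on 0 of 4 Control arrays. Slc4a2, the anion exchanger with which bile ducts secrete bicarbonate, fell from 9.49 ± 0.14 (SD, n = 3) to 9.01 ± 0.06 (SD, n = 4), with a log2 difference of -0.48 (SE 0.08, limma, adjusted p = 0.0114), which turned to 0.42 when the arrays were scaled to their medians and to 0.09 when they were scaled to their 75th percentiles. Tspan8 and Slc4a2 stand in a gene list that the study chose on these samples, so that they are no independent evidence. The summed linear signal of the 28 genes lay between 9539 and 10120 in the Control mice, between 11638 and 18554 in the DEN mice and between 10212 and 11853 in the Gas1 mice. Most of the gap was Tff3, and without it the sum of the other 27 genes lay between 9416 and 10002, between 9661 and 11089 and between 9305 and 10148, so that the groups overlapped. The sum of the 6 members measured in all mice lay between 524 and 542, between 525 and 635 and between 506 and 675, and overlapped too.

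**Figure D5:**
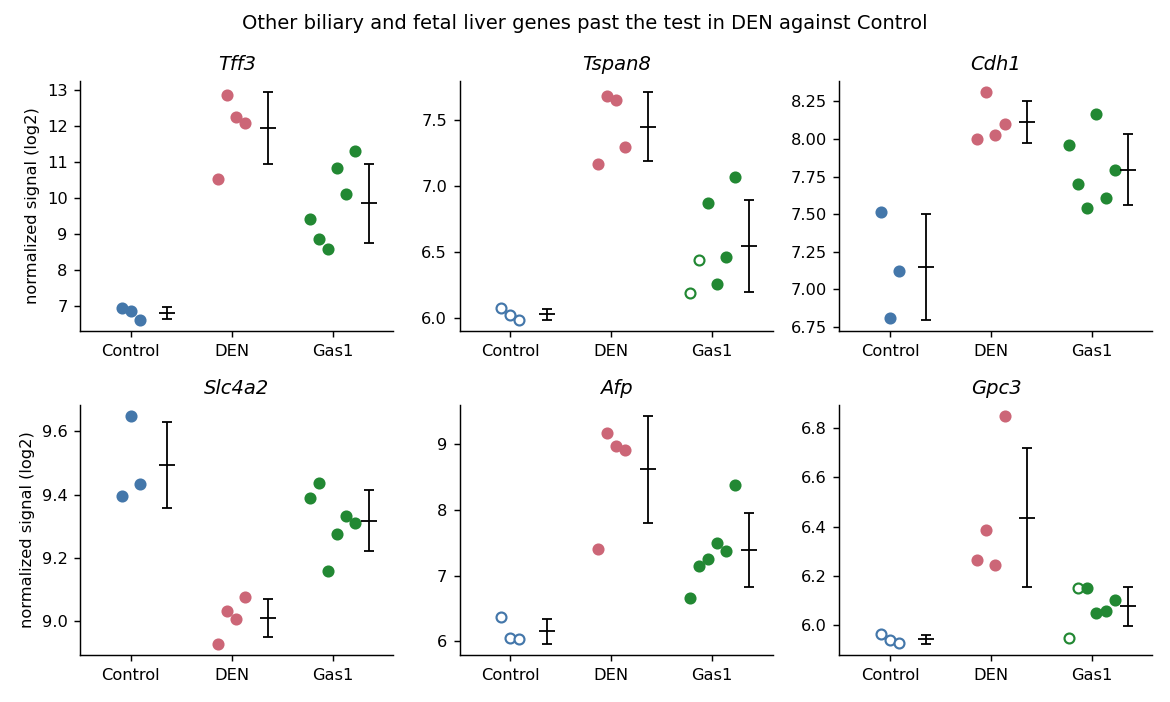
Normalized log2 signal per mouse of the 4 bile duct genes and the 2 fetal liver genes that passed the test in DEN against Control (circles, filled where well above background on an array of that mouse), with mean and SD per group (bars). Tff3 lies between 6.62 and 6.94 in Control and between 10.53 and 12.87 in DEN, and Slc4a2 is the gene that is lower in DEN.

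Among 11 genes of hepatic progenitors and fetal liver, 2 rose in DEN against Control and 9 did not pass, with a median log2 difference of 0.20. Of all genes 2.38% passed there. Afp, the fetal serum protein alpha-fetoprotein, was at 6.15 ± 0.19 (SD, n = 3) in Control, 8.62 ± 0.81 (SD, n = 4) in DEN and 7.39 ± 0.57 (SD, n = 6) in Gas1. Its signal was at least 4.78-fold higher in DEN than in Control (limma, adjusted p = 0.0156). The Afp call was lost in 6 of 32 alternatives. Among them were those without Control mouse 2 (adjusted p = 0.0573), without DEN mouse 3 (adjusted p = 0.0511) and with cyclic loess (adjusted p = 0.0554). Gpc3, a proteoglycan of fetal liver and of HCC, was at least 1.06-fold higher (limma, adjusted p = 0.0484), a call that was lost in 19 of 32 alternatives, among them those without each Control mouse (adjusted p up to 0.128), without DEN mouse 2 or 3 and without Gas1 mouse 1, 2, 3, 4 or 5. In Gas1 against DEN and in Gas1 against Control 0 of the 11 genes passed with limma, beside 0.127% and 0.427% of all genes. An unadjusted p under 0.05 was found for 3 and 1, beside 10.9% and 13.2% of all genes. In DEN against Control 3 higher and 0 lower genes of the 11 had such a p, beside 20.3% of all genes. Signalling pathways that direct biliary fate showed no call. Of the 17 genes of the Notch pathway and of the 17 genes of the Hippo pathway with its YAP targets, 0 passed with limma in any comparison. Of all genes 2.38% passed in DEN against Control, 0.127% in Gas1 against DEN and 0.427% in Gas1 against Control. A count of 0 of 17 is near these shares. Well above background on no array were 6 of the Notch and 2 of the Hippo genes, so that these could give no measured difference. In DEN against Control, Gas1 against DEN and Gas1 against Control 2, 1 and 2 Notch genes and 2, 1 and 2 Hippo genes had an unadjusted p under 0.05. The shares of all genes were 20.3%, 10.9% and 13.2%.

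Markers of the other cells that a liver sample can hold were read in the same way. All 12 hepatocyte markers were well above background on every array, as the label of the tissue says. Ttr, the carrier transthyretin, fell by 1.01 in DEN against Control (limma, adjusted p = 0.00594), although the difference was 0.18 after scaling of the arrays to their medians and -0.15 after scaling to their 75th percentiles (adjusted p = 0.473), and Pck1, an enzyme of gluconeogenesis, rose by 1.96 in Gas1 against Control (limma, adjusted p = 0.0495), a call that was lost in 20 alternatives, among them those without each Control mouse (adjusted p up to 0.206), without DEN mouse 2 or the mouse of DEN arrays 4 and 5, and without Gas1 mouse 1, 2, 3, 4 or 5. Of 12 macrophage markers Emr1 (F4/80) rose in DEN by 0.31 (limma, adjusted p = 0.0262), and the call was lost without Control mouse 1 or 2 and without DEN mouse 2 or 3 (adjusted p up to 0.0815), with cyclic loess (0.21, adjusted p = 0.0905) and with 75th percentile scaling (0.0014, adjusted p = 0.992). Of 6 measured genes of gallbladder and gut epithelium Ctse, the protease cathepsin E, was at least 3.96-fold higher in Control than in DEN (limma, adjusted p = 0.000259) and at least 2.53-fold higher in Gas1 than in DEN (limma, adjusted p = 0.00109). Ctse too is in the list the study chose. The lists of stellate cells and fibroblasts, endothelium, lymphocytes, neutrophils, erythroid cells, mesothelium, exocrine pancreas and proliferation held no gene that passed with limma in any comparison. Of all genes 2.38% passed in DEN against Control, 0.127% in Gas1 against DEN and 0.427% in Gas1 against Control. The lists with no call held 102 genes in DEN against Control, of which 16 (15.7%) had an unadjusted p under 0.05, beside 20.3% of all genes. They held 165 genes in Gas1 against DEN, 26 of them (15.8%) with such a p, beside 10.9% of all genes, and 159 in Gas1 against Control, 31 of them (19.5%), beside 13.2%. These lists were picked for having no call, while the shares of all genes include called ones. The shares are thus not alike and test nothing about the cell types.

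The delivered gene itself did not stand out on the arrays. Gas1 was at 6.53 ± 0.20 (SD, n = 3) in Control, 6.54 ± 0.09 (SD, n = 4) in DEN and 6.61 ± 0.11 (SD, n = 6) in the Gas1 group, with a difference of 0.08 between Gas1 and DEN (SE 0.08, limma, adjusted p = 0.768). Whether its probes lie in the delivered sequence was not checked, so that this is no test of the labels.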

How the data were processed

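For each array the authors deposited scanner output, with the signal intensity and background intensity of each spot and flags for spots well above background and for outliers, extracted with Agilent Feature Extraction (10.7.3.1 per the file headers) without normalization between arrays. A deposited table of the series holds log2 values after normexp and quantile normalization by the authors and was used as an alternative. From the intensities, normexp (offset 50), log2 and quantile normalization over spots that are not controls were applied, outlier spots were left out, spots were averaged per probe, and probes were centred and averaged per gene. Arrays Control 3 and 4 and arrays DEN 4 and 5 carry the same RNA code and were averaged, which gave 13 mice. limma 3.58.1 in R 4.3.3 compared the group means (lmFit, eBayes, 1 model of all groups), and p-values were adjusted after Benjamini-Hochberg over all 22032 genes with a threshold of 0.05. The spread between these mice is the error, and arrays have no read depth, so that the number of mice limits the precision. Spots well above background numbered 15707 to 29765 per array. A gene outside the members was named where it passed in a list, up to 5 per list and comparison, and the 3 genes most like Spp1 were named. The members and the 16 lists were chosen with earlier results of these data known. A t-test, single slides and other scalings were alternatives. The script was tested on simulated data.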

Additional observations from a re-analysis of the deposited data

Results flagged for a closer look

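One mouse was flagged because it stood apart from the other mice of its group by Dixon's test at the 95% level. DEN mouse 2 had a Prom1 value of 7.10 on the log2 scale, and the next DEN mouse had 6.51. On the downstream Prom1 probe alone it had 8.16, and the next DEN mouse had 6.98. In all 18 groups of 4 to 6 mice were tested, and chance flags about 1 group in 20. The 2 values are not separate findings, since the probe is part of the gene value. Without this mouse the gene difference of DEN from Control was 0.30 in place of 0.46, and the difference of Gas1 from DEN -0.27 in place of -0.43.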

How the results depend on the processing

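Of 24 differences of members between groups, 12 kept their direction in every alternative run, among them Prom1 in DEN against Control and in Gas1 against DEN, and Sox9 in both comparisons of the Gas1 group. One member passed in DEN against Control, Prom1, with median scaling (0.53, adjusted p = 0.0331), with only probes well above background on every array of a group (0.99, adjusted p = 0.0382, a filter that Prom1 passed through DEN alone) and with the 15 arrays as separate samples (0.44, adjusted p = 0.0336). The latter, which counts the repeat arrays of 2 RNAs as mice, also gave 1 member in Gas1 against Control, Sox9 (-0.47, adjusted p = 0.0363). Leaving out 1 mouse gave 0 members in all comparisons, and the Sox9 difference of Gas1 from Control then lay between -0.53 and -0.25, the latter without the mouse of Control arrays 3 and 4. Of all genes, leaving out 1 mouse gave 89 to 761 calls in DEN against Control, 5 to 127 in Gas1 against DEN and 0 to 182 in Gas1 against Control. Over all alternatives the counts were 0 to 2876, 1 to 263 and 0 to 342, and those of co-varying pairs 0 to 3. A t-test with equal variances called 0 members after Benjamini-Hochberg adjustment in all comparisons, and 1, 2 and 1 members at an unadjusted p of 0.05. Of all genes it called 0, 5 and 1 after adjustment and 3846, 2302 and 2218 without. With unequal variances (Welch) the counts of all genes were 0, 1 and 0 after adjustment and 2961, 2183 and 2010 without. The methods of the study name a t-test for its other data, and for the arrays the multtest package.

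The mice were not taken as paired by the replicate numbers of the labels. The correlation of same-numbered arrays in their deviation from the group means was above 0.1 in 4 of 13 pairs (range -0.31 to 0.26). Only same-numbered arrays enter this check, so that it cannot tell whether the numbers pair the mice. With the replicate number as a block on 15 arrays, 0 members passed in each comparison, and 1581, 170 and 326 genes did. Scaling moved the median of all genes, and single genes by different amounts. The median log2 difference of all genes in DEN against Control was -0.20 with 75th percentile scaling, 0.12 with median scaling and -0.40 with the Feature Extraction processed signal, against 0.0061 with quantile normalization. Of the genes called there 268 were higher and 257 lower with quantile normalization, 1745 and 523 with 75th percentile scaling, and 2861 and 15 with median scaling.

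Small differences, none called, changed sign. With 75th percentile scaling Cd24a was at -0.13 in DEN against Control and -0.018 in Gas1 against Control, Cldn4 at -0.28 in DEN against Control, Prom1 at -0.22 in Gas1 against Control and its downstream probe at -0.047. With median scaling Sox9 was at 0.068 in DEN against Control, and in Gas1 against Control Epcam was at 0.010, Krt7 at 0.046, Krt19 at 0.13 and Cldn4 at 0.032. In Gas1 against Control Prom1 was at -0.013 with cyclic loess and -0.062 with the 11 dimmer arrays, which put Spp1 in Gas1 against DEN at -0.016. Cldn4 in DEN against Control was at -0.0036 with offset 16 and -0.85 with the processed signal, which gave 0.40 in Gas1 against DEN, and at 0.023 in Gas1 against Control with the brightest probe alone. Slide 1 alone gave 0.010 for Epcam and 0.028 for Krt19 in Gas1 against Control, and slide 2 alone -0.031 for Cd24a in Gas1 against DEN. Leaving out 1 mouse gave -0.032 to 0.047 for Cldn4 and -0.17 to 0.11 for Sox9 in DEN against Control, and in Gas1 against Control -0.061 to 0.012 for Cldn4, -0.067 to 0.023 for Epcam, -0.25 to 0.028 for Krt19 and -0.0030 to 0.076 for Prom1. Called genes that turned were Slc4a2 (0.093 with 75th percentile and 0.42 with median scaling) and Ttr (0.18 with median scaling), both in DEN against Control. The causes were not tested. The weak signal of 9 of the 10 member probes limits the values of all members but Spp1.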
